A study of Mus musculus with 14 samples.

Results

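The 45 genes described here are cell cycle and proliferation genes, chosen by name: each row of a mouse gene count table whose Ensembl identifier maps to 1 of 45 listed symbols was taken, and all 45 were found among 52636 genes. By role they comprised 8 genes of replication licensing, 5 of DNA precursor and S phase synthesis, 8 G1 cyclins, cyclin-dependent kinases (CDKs) and E2f1, 21 genes of G2 and mitosis, and 3 CDK inhibitors. RNA was sequenced from cells sorted out of the dermis of male C57/BL6 mice, 7 weeks old, with the wound bed taken at day 5. There were 7 groups of 2 libraries each, 14 in all. A new set held Adipocyte, AdipoqTraced (called GFP in the table) and CD26 libraries, and a set that the labels give as reanalysed held AP CD9Low, AP CD9High, CD29 (CD29High in the table) and DN (CD29Low in the table).

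All groups share the strain, sex, age and wound day; no treatment is given for any of them. AdipoqTraced names cells traced through Adipoq, the adiponectin gene, whose promoter is used to mark fat cells and their descendants; neither the Cre or reporter allele nor the sorting gates are named in the labels. AP and DN are not spelled out in the labels and are used as written, and AP below means the 2 AP groups weighted equally. The labels do not tell whether both libraries of a group stem from different mice, and the p-values therefore describe variation among libraries that may be technical.

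A cell that divides passes from G1, where D-type cyclins with Cdk4 and E-type cyclins with Cdk2 release E2F factors from the retinoblastoma protein, into S phase, and then through G2 into mitosis. The MCM helicase is loaded onto origins by Cdc6 and Cdt1 in G1, Pcna and ribonucleotide reductase serve DNA synthesis, and cyclin A2, cyclins B1 and B2 and Cdk1 with the Plk1 and Aurora kinases drive mitosis. E2F factors are known for acting on genes of G1 and S phase, and the DREAM and MuvB complexes for acting on genes of G2 and mitosis through an element called CHR, often with CCAAT boxes nearby. In skin wounds, proliferation of fibroblasts and other dermal cells is known to follow the first inflammatory days, whereas mature fat cells are regarded as largely out of the cycle.

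RefSeq promoters (build GRCm38.p6, from 250 bases before to 50 after each start) were found for 37 of the 45 genes, as 42 promoters; Mcm4, Ccnd1, Ccnd2, Ccne2, Ccna2, Aurkb, Kif20a and Tpx2 had none. Some are printed as examples, picked for the letters they hold. All are of genes with a single promoter, called higher in AdipoqTraced than in Adipocyte at an adjusted p under 0.05 (edgeR). Genes whose 150 bases lacked the letters to be capitalised are not printed. The lines therefore cannot be read as a contrast between roles, for which counts over all promoters are given below. Each line gives the 150 bases before the start, 5′ to 3′ on the gene's strand. In the promoters of 4 genes of G2 and mitosis (Cdc20, the activator of the anaphase-promoting complex; Cdk1, the mitotic kinase; Mki67, the Ki-67 proliferation marker; Top2a, a topoisomerase), capitals mark CCAAT boxes, and the CHR element as the letters TTTGAA or as a variant with the letters TTCGAA. Both were looked for on either strand, so that some are capitalised as their reverse complement. An E2F match in Mki67, written ttggcgc, is left in lower case.
Cdc20 (chr4:118437344-118437493, - strand): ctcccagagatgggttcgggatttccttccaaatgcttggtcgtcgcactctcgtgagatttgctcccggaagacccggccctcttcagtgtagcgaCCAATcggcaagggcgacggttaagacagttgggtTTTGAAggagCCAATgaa
Cdk1 (chr10:69352913-69353062, - strand): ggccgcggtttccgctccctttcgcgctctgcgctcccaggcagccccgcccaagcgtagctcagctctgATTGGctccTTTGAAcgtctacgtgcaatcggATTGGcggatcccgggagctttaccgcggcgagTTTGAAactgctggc
Mki67 (chr7:135716380-135716529, - strand): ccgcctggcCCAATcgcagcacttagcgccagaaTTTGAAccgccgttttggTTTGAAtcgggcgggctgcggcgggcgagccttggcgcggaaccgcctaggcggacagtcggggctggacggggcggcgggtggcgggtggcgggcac
Top2a (chr11:99024190-99024339, - strand): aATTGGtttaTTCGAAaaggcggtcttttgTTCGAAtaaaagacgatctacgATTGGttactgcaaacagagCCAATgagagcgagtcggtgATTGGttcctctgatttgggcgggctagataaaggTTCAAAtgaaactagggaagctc

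In 2 licensing genes (Mcm5 and Mcm6, subunits of the MCM helicase) and in Rrm1, the large subunit of ribonucleotide reductase, capitals mark E2F letters on either strand. These are TTCCCGC in Rrm1, and in both licensing genes the variant TTGGCGC or its reverse complement. CCAAT boxes in these lines are left in lower case.
Mcm5 (chr8:75109359-75109508, + strand): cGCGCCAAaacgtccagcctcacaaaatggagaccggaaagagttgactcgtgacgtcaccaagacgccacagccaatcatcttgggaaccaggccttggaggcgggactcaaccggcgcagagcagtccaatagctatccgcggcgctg
Mcm6 (chr1:128359706-128359855, - strand): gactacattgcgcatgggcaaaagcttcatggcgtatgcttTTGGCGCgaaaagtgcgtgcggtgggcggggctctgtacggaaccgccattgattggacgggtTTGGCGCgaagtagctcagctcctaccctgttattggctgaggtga
Rrm1 (chr7:102441545-102441694, + strand): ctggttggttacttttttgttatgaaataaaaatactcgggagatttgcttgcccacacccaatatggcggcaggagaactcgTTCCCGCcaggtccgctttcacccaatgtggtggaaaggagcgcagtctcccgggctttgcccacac

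Over the whole 250 to 50 window and both strands, E2F letters stood in 7 of 8 licensing promoters (87.5%), in 3 of 18 of G2 and mitosis (16.7%) and in 6.81% of all 32851 promoters. Of the 5 promoters of S phase synthesis genes, only that of Rrm1 held them (20%). CHR letters stood in 14 of 18 promoters of G2 and mitosis (77.8%), in 2 of 8 of licensing (25%), in none of the 5 promoters of S phase synthesis genes, and in 19.2% of all promoters. A CCAAT box stood in 16 of 18 promoters of G2 and mitosis (88.9%), in 6 of 8 of licensing (75%) and in 37.4% of all. An E2F match written TTGGCGC holds a CCAAT box too where an A precedes it. A match is a description of the letters, not of binding, and several of the genes have more than 1 promoter in the table.

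Library totals ran from 13760557 to 22218364 counts, but the Adipocyte libraries stood apart. Of their counts, 79.1% and 84.8% fell on genes of the mitochondrial genome, against 18.4% to 38.8% in AdipoqTraced and CD26 and 0.19% to 0.94% in the reanalysed set. Outside that genome they held 2952186 and 3255546 counts, against 10081318 to 22133663 in the other libraries, so low genes were measured least precisely there. The Adipocyte libraries had summed levels of 9 adipocyte markers of 7833 and 11500 CPM, and the AdipoqTraced libraries 74.1 and 87.1 CPM, with Lep at 0 in both. CPM, a gene's counts per 1000000 counts of its library, is given after scaling by TMM (the trimmed mean of M values). The 8 fibroblast markers summed to 7738 and 15110 CPM in Adipocyte and to 49920 or more in every other group. In bulk RNA, fewer cells of a type and less RNA per cell cannot be told apart.

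**Figure D1:**
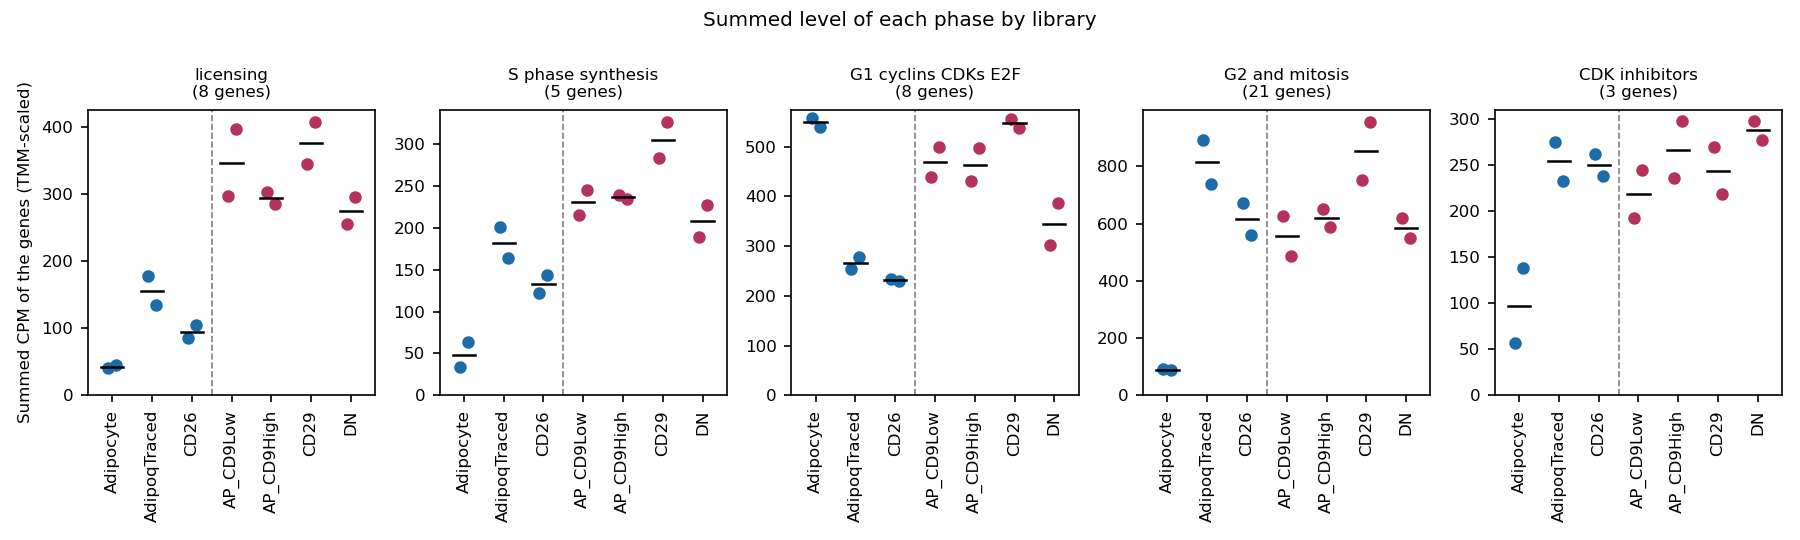
Summed level of each of the 5 gene groups in CPM, 1 point per library and a line at the mean of each of the 7 groups; the dashed line parts the new (blue) from the reanalysed (red) set. The 2 Adipocyte libraries lie lowest for the 21 genes of G2 and mitosis, at 93.2 and 86.8 CPM.

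AdipoqTraced against Adipocyte. Most genes of mitosis rose in the AdipoqTraced libraries, and Ccnd2, cyclin D2, fell. The 21 genes of G2 and mitosis summed to 891 and 740 CPM in AdipoqTraced, and to 93.2 and 86.8 CPM in Adipocyte. The 8 licensing genes summed to 178 and 134 CPM, against 40.4 and 44.8 CPM. Of the 44 genes that passed the filter on low counts (Cdkn2a did not), 21 were called higher and 1 lower at an adjusted p under 0.05 (edgeR's quasi-likelihood test with Benjamini-Hochberg adjustment over 18394 genes). The background was 5.61% of all genes called higher and 4.88% called lower. Both AdipoqTraced libraries lay above both Adipocyte libraries in 32 of 44 genes, where 26.6% of all genes did so, and below in 1, where 18.6% did. The median log2 fold change of the 44 was 2.37, or 2.26 with genes at 0 Adipocyte counts set at their bound, and that of all genes 0.19.

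Among the genes of G2 and mitosis, 13 of 21 were called higher and none lower. Mki67, which codes for the Ki-67 protein of dividing cells, stood at 241 and 208 CPM in AdipoqTraced and at 32.9 and 31.7 CPM in Adipocyte. The 2 groups did not overlap, and the log2 fold change was 2.80 (SE 0.35, adjusted p = 3.52e-05, edgeR). Top2a, the topoisomerase that untangles replicated DNA, stood at 104 and 123 CPM against 23.7 and 3.32 CPM. Its 2 Adipocyte libraries differed from each other by more than its 2 AdipoqTraced libraries did, and its log2 fold change was 3.15 (SE 0.52, adjusted p = 0.000494, edgeR). Ccna2, cyclin A2, stood at 67.7 and 55.9 CPM against 5.17 and 0 CPM, and rose by 4.71 on the log2 scale (SE 0.75, adjusted p = 0.000247, edgeR).

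Ccnb2, cyclin B2, stood at 75.8 and 38.1 CPM in AdipoqTraced and at 0 and 0.98 CPM in Adipocyte. Both Adipocyte libraries were near 0, and the log2 fold change was 6.72 (SE 1.0, adjusted p = 0.0002, edgeR). Cenpe, a kinetochore motor, stood at 40.7 and 45.8 CPM against 1.41 and 1.56 CPM, and rose by 4.85 on the log2 scale (SE 0.76, adjusted p = 0.000222, edgeR). Libraries of the same group lay close together for this gene. Cdc20, Plk1 (Polo-like kinase) and Kif20a (a kinesin of cytokinesis) had no count in either Adipocyte library. Against a floor of 3 counts over the Adipocyte group they were at least 50.5-fold, 53.4-fold and 54.4-fold higher in AdipoqTraced, and all 3 were called. Cdk1 had 3 counts in the Adipocyte group and 428 in AdipoqTraced, a ratio of 43.0 with a 95% exact counting interval of 14.6 to 209.0, which covers counting error only; it was called higher.

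The remaining genes of G2 and mitosis called higher were Tpx2 (a spindle assembly factor, log2 fold change 4.11), Bub1b (a spindle checkpoint kinase, 4.16), Birc5 (survivin, 3.80) and Prc1 (a midzone microtubule bundler, 4.81). Ccnb1, cyclin B1, did not pass, at 3.48 and 6.11 CPM against 1.88 and 3.52 CPM (log2 fold change 0.79, SE 1.21). Aurka, Aurkb, Bub1, Cenpf, Kif11, Ube2c and Nusap1 did not pass either. Ube2c shares exon bases with Tnnc2, a muscle gene on the opposite strand, and no source used here gives the strand setting of the counting.

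**Figure D2:**
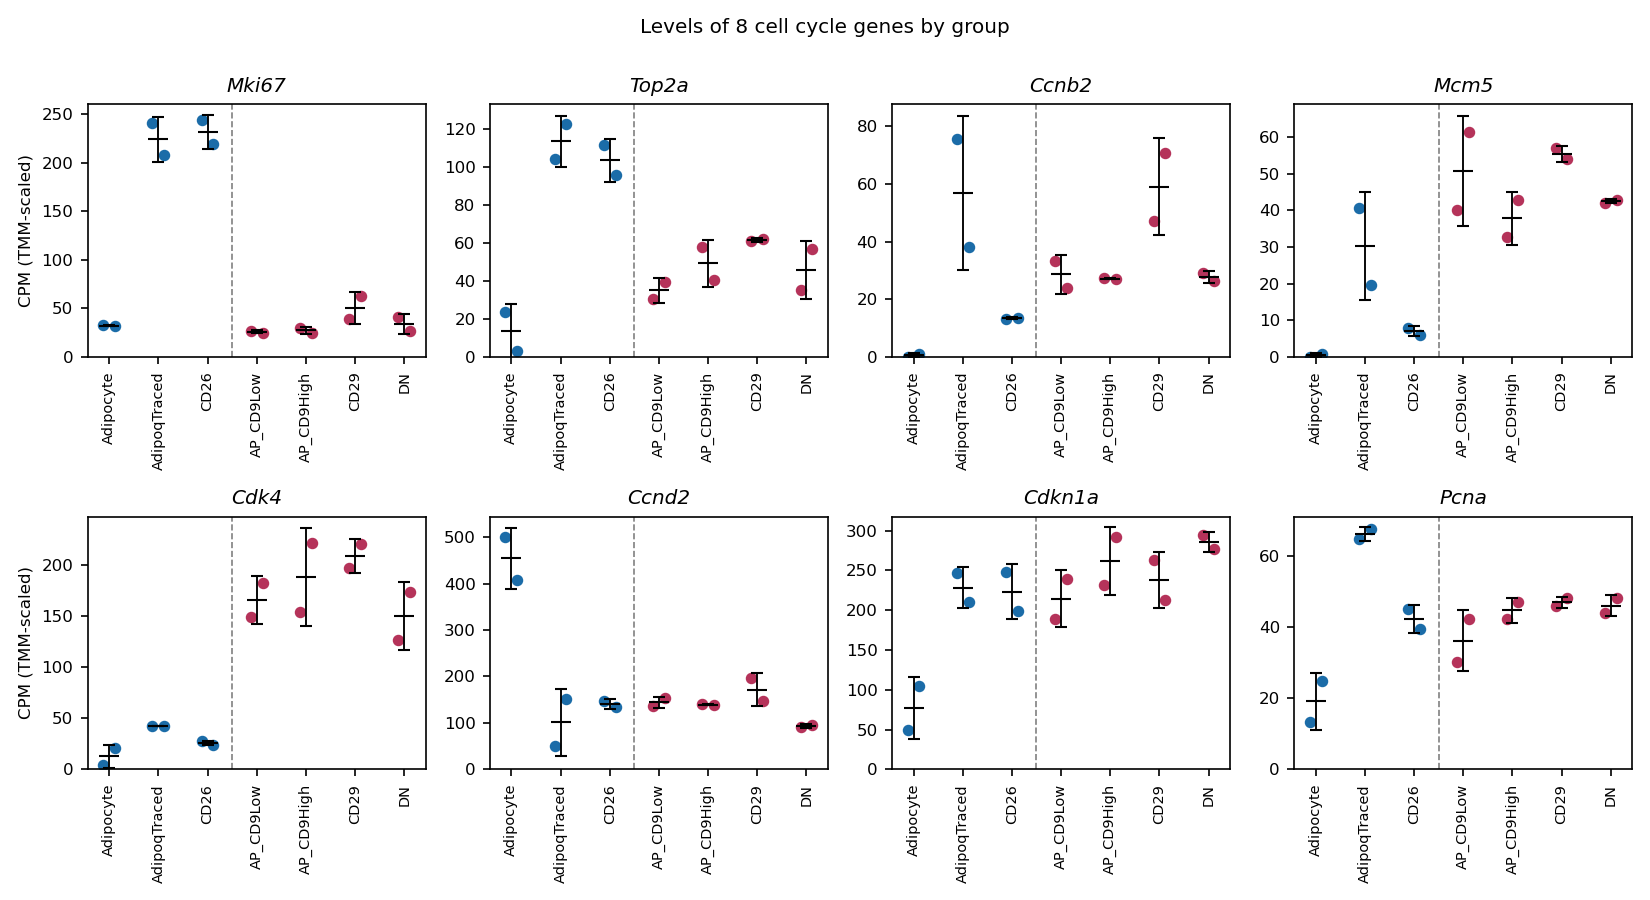
CPM of selected genes in each library (points) by group, with the mean and SD of the 2 libraries in black. Mki67 lies between 208 and 244 CPM in AdipoqTraced and CD26 and between 24.6 and 62.4 CPM in the other groups, whereas Ccnd2 is highest in the Adipocyte libraries.

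In licensing, 3 of 8 genes were called higher. Mcm5 stood at 40.8 and 19.7 CPM against 0 and 0.78 CPM (log2 fold change 6.13, SE 1.14, adjusted p = 0.00157, edgeR). Mcm6 rose by 2.36 (SE 0.71, adjusted p = 0.0408) and Mcm4 by 1.77 (SE 0.54, adjusted p = 0.0447) on the log2 scale. Mcm2, another helicase subunit, stood at 8.12 and 15.6 CPM against 0.70 and 2.35 CPM without passing (adjusted p = 0.0782, edgeR). Cdc6, a helicase loader, had no Adipocyte count and was at least 20.0-fold higher, and was not called. Mcm3, Mcm7 and Cdt1 did not pass.

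In S phase synthesis, 3 of 5 genes were called higher. Pcna, the sliding clamp of the replication fork, stood at 64.7 and 67.6 CPM in AdipoqTraced and at 13.4 and 24.8 CPM in Adipocyte (log2 fold change 1.77, SE 0.40, adjusted p = 0.00726, edgeR). The 2 subunits of ribonucleotide reductase, Rrm1 and Rrm2, rose by 2.63 (SE 0.54) and 2.72 (SE 0.58) on the log2 scale. Tyms, thymidylate synthase, and Tk1, thymidine kinase, did not pass.

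The genes of G1 did not move as 1 group: 1 of 8 was called higher and 1 lower. Cdk4, the partner of D-type cyclins, stood at 42.6 and 42.8 CPM against 4.70 and 20.7 CPM and rose by 1.68 (SE 0.46, adjusted p = 0.0243, edgeR). Ccnd2 stood at 50.4 and 151 CPM in AdipoqTraced and at 501 and 408 CPM in Adipocyte. It fell by 2.17 on the log2 scale (SE 0.36, adjusted p = 0.000545, edgeR), and with library size alone in place of TMM the value was -0.13 and the call was lost. Ccnd1, cyclin D1, stood at 66.0 and 53.9 CPM against 15.5 and 39.1 CPM and Ccnd3, cyclin D3, at 77.9 and 4.57 CPM against 18.8 and 52.8 CPM, and neither passed. Ccne1, a cyclin E, had no Adipocyte count and 39 AdipoqTraced counts, at least 3.92-fold higher, and was not called; Ccne2, Cdk2 and E2f1 did not pass.

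Cdkn1a, the p21 inhibitor of CDKs and a p53 target, was also higher in AdipoqTraced, at 247 and 210 CPM against 49.3 and 104 CPM (log2 fold change 1.56, SE 0.31, adjusted p = 0.00258, edgeR). Cdkn1b, the p27 inhibitor, stood at 28.9 and 23.3 CPM against 7.28 and 34.4 CPM and did not pass. Cdkn2a, which codes for p16 and p19ARF, was at 0 in 12 of the 14 libraries and at 0.15 and 0.24 CPM in 1 AP CD9High and 1 CD29 library.

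Mki67, Top2a, Ccna2, Ccnb2, Cenpe, Mcm5 and Cdkn1a were called under all 12 alternatives. The number of genes called moved from 22 to 40 with library size alone and to 13 with the libraries of the new set only. Fewer were called without Adipocyte replicate 1 and without Adipocyte replicate 2, where fewer of all genes were called too. The median log2 fold change was then 2.49 and 2.83, against 0.27 and 0.52 over all genes. Over all genes, library size alone called 7958 of 18394 higher and 249 lower. The libraries of the new set only called 644 of 15542 higher and 697 lower. With the 2 groups compared, 7 of 8 fibroblast markers and 4 of 10 macrophage markers were called higher in AdipoqTraced, and all 9 adipocyte markers and 4 of 6 skeletal muscle markers lower. The part of these markers in the result was not tested. With the genes of the mitochondrial genome left out of the fit, no call of the 44 genes changed. Their median log2 fold change was then 2.38, against 0.18 over all genes. The TMM factors of the Adipocyte libraries were already 0.302 and 0.239 in the main fit, so leaving these genes out could change little. The part of the mitochondrial share was therefore not tested.

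**Figure D3:**
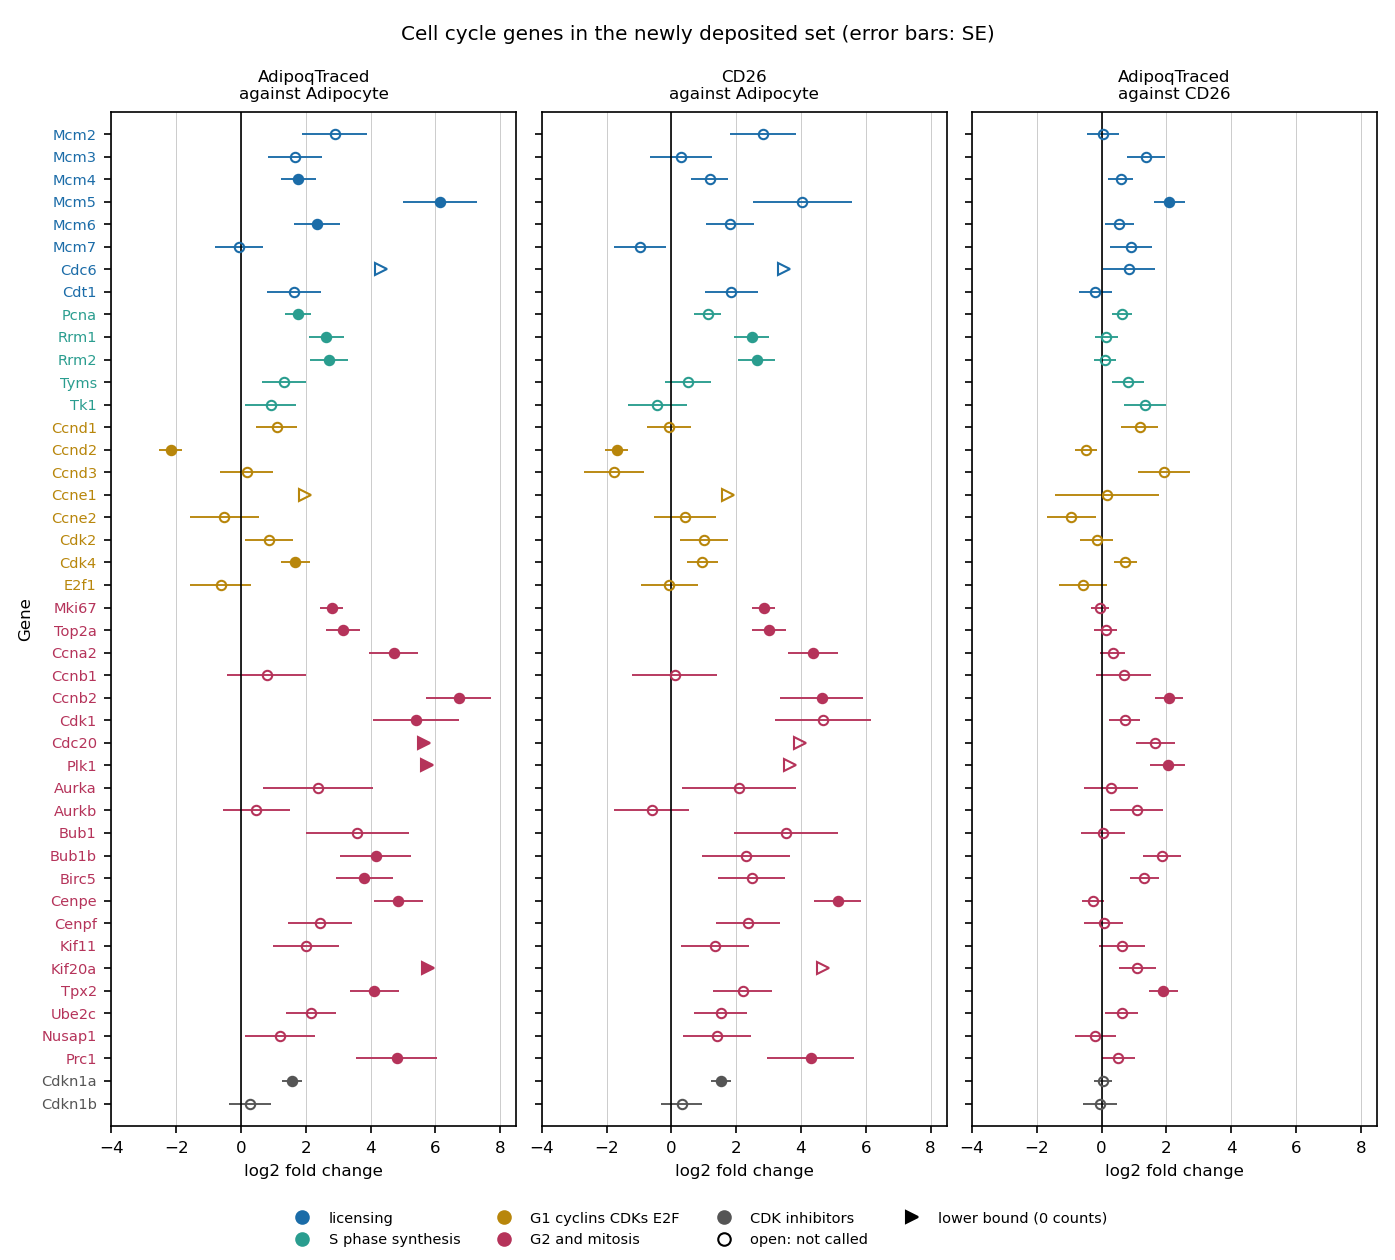
Log2 fold change with its SE of each tested gene in the 3 comparisons of the new set, coloured by role; open symbols were not called, and triangles are lower bounds for genes with 0 Adipocyte counts. Among called genes, Ccnd2 alone lies below 0, in both comparisons with Adipocyte.

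CD26 against Adipocyte. This comparison shares the Adipocyte libraries with the one above, so the values are given side by side and are not independent. The CD26 libraries also had a higher summed level of the genes of G2 and mitosis than the Adipocyte libraries, at 672 and 560 CPM. Of 44 genes, 9 were called higher and 1 lower, with a background of 5.45% and 5.21% of all genes. Both CD26 libraries lay above both Adipocyte libraries in 31 genes, where 31% of all genes did so, and below in 3, where 19.9% did. The median log2 fold change was 1.97, or 1.83 with genes at 0 at their bound, against 0.24 over all genes.

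By role, 6 of 21 genes of G2 and mitosis, 2 of 5 of S phase synthesis and Cdkn1a were called higher, Ccnd2 was called lower, and none of the 8 licensing genes was called. Mki67 stood at 244 and 220 CPM in CD26 (log2 fold change 2.85, SE 0.35, adjusted p = 2.79e-05, edgeR). Top2a stood at 112 and 95.6 CPM, and its log2 fold change was 3.02 (SE 0.52). These levels lay within or close to those of AdipoqTraced. Ccna2 at 46.0 and 51.7 CPM rose by 4.37 (SE 0.77), and Cenpe at 63.2 and 41.7 CPM by 5.13 (SE 0.74), on the log2 scale. Ccnb2 (4.64, SE 1.29) and Prc1 (4.30, SE 1.34) completed the mitotic genes called.

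Rrm1 rose by 2.49 (SE 0.54) and Rrm2 by 2.63 (SE 0.58) on the log2 scale, at 37.8 and 49.6 CPM and at 21.6 and 34.2 CPM in CD26. Pcna, at 45.1 and 39.5 CPM, did not pass (log2 fold change 1.12, SE 0.41, adjusted p = 0.103, edgeR), although both CD26 libraries lay above both Adipocyte libraries. Cdkn1a stood at 248 and 199 CPM and rose by 1.52 (SE 0.31, adjusted p = 0.00301, edgeR). Ccnd2 at 148 and 134 CPM fell by 1.69 (SE 0.36, adjusted p = 0.00394, edgeR), and this call too was lost with library size alone, where the value was near 0. The Ccnd2 call was also lost without Adipocyte replicate 1 and without CD26 replicate 2.

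For the genes with no Adipocyte count the bounds were at least 15.8-fold for Cdc20, 12.7-fold for Plk1, 25.9-fold for Kif20a, 11.2-fold for Cdc6 and 3.39-fold for Ccne1, and none of these was called. Cdk1 had a ratio of 25.9, with a counting interval of 8.75 to 126.0. Mcm2 (adjusted p = 0.0886), Ccnb1, Ccnd1, Ccnd3 and Cdkn1b did not pass. The number called was 24 with DESeq2, 20 with edgeR's legacy method and 32 with library size alone. Fewer were called without Adipocyte replicate 1 or 2, where fewer of all genes were called too. The median log2 fold change was then 1.75 and 2.46, against 0.38 and 0.67 over all genes. Over all genes, DESeq2 called 1887 of 14114 higher and 1401 lower, and the legacy method 1243 of 18394 higher and 792 lower. Library size alone called 6204 of 18394 higher and 298 lower. Mki67, Top2a, Ccna2, Cenpe and Cdkn1a were called under all 12 alternatives. Of the markers, 7 of 8 for fibroblasts, 5 of 10 for macrophages and 4 of 10 for keratinocytes were called higher in CD26, and all 9 for adipocytes lower; their part was not tested.

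AdipoqTraced against CD26. Ccnb2, Mcm5, Tpx2 and Plk1 were higher in AdipoqTraced, and 40 of the 44 genes did not pass. Mki67 differed by -0.05 (SE 0.28) and Top2a by 0.13 (SE 0.36) on the log2 scale, and Cdkn1a by 0.03 (SE 0.28), and the libraries of the 2 groups overlapped for all 3. Pcna stood at 64.7 and 67.6 CPM in AdipoqTraced and at 45.1 and 39.5 CPM in CD26, without overlap, and did not pass (log2 fold change 0.64, SE 0.31, adjusted p = 0.271, edgeR). Of 44 genes, 4 were called higher and 0 lower, against 2.37% and 1.48% of all genes. DESeq2 called 5. In 15 genes both AdipoqTraced libraries lay above both CD26 libraries, where 19.2% of all genes did so, and in 1 below, where 22.1% did. The median log2 fold change was 0.60, against 0 over all genes.

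The first of the 4 was Ccnb2, with 75.8 and 38.1 CPM in AdipoqTraced and 13.2 and 13.6 CPM in CD26 (log2 fold change 2.09, SE 0.43, adjusted p = 0.0136, edgeR). Mcm5 stood at 40.8 and 19.7 CPM against 8.01 and 6.09 CPM (2.09, SE 0.48, adjusted p = 0.0243, edgeR). Neither gene overlapped between the groups, and the AdipoqTraced libraries were wider apart than the CD26 libraries. Tpx2 stood at 49.4 and 73.2 CPM against 17.5 and 15.0 CPM (1.91, SE 0.46, adjusted p = 0.029, edgeR). Plk1 stood at 20.2 and 13.9 CPM against 5.62 and 2.49 CPM (2.04, SE 0.54, adjusted p = 0.0473, edgeR).

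The number of these calls changed with the setting. It was 0 with the libraries of the new set only, with edgeR's legacy method and with the replicate block. With no filter on low counts it was 2. Over all genes, these called 43 of 15542, 248 and 177 of 18394, and 256 of 28759 higher, against 436 in the main fit. The 4 calls were lost without AdipoqTraced replicate 1 or either CD26 replicate, where fewer of all genes were called too. Without AdipoqTraced replicate 2 more were called, of the 44 and of all genes. Over these 4 fits the median of the 44 ran from 0.09 to 0.66, and that of all genes from -0.20 to 0. Leaving both Adipocyte libraries out of the fit, an alternative chosen after seeing the data, gave 4. Ccnd3 differed widely between the AdipoqTraced libraries, at 77.9 and 4.57 CPM, against 9.09 and 12.7 CPM in CD26. Of the markers, 3 of 7 for pericytes were called higher in AdipoqTraced (summed 462 to 713 CPM against 232 to 318) and 1 of 9 for adipocytes, and 1 each for fibroblasts, macrophages and keratinocytes lower. None of the 8 endothelial markers was called (edgeR); 4 were lower at an unadjusted p under 0.05, and they summed to 18.6 to 47.5 CPM against 92.1 to 130 CPM. The part of these markers was not tested.

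AP CD9High against AP CD9Low. No gene of the 44 was called in either direction (edgeR), none had an unadjusted p under 0.05 (2.38% of all genes did so higher and 1.26% lower), and DESeq2 called 0. Only 0.0163% of all genes were called higher and 0.00544% lower. Mki67 stood at 29.6 and 24.9 CPM in AP CD9High and at 27.0 and 24.6 CPM in AP CD9Low (log2 difference 0.08, SE 0.31). Top2a stood at 58.0 and 40.4 CPM against 30.4 and 39.6 CPM (0.49, SE 0.38). Both AP CD9High libraries lay above both AP CD9Low libraries in 7 genes, where 16.2% of all genes did so, and below in 4, where 10.7% did. The median over the 44 genes was 0.07, with 24 values above 0 and 20 below. A p that misses the threshold does not show that the levels are the same.

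CD29 against AP. Mki67 was the gene called higher in CD29, and the remaining 43 were not called. It stood at 38.8 and 62.4 CPM in CD29 and between 24.6 and 29.6 CPM over the 4 AP libraries, with no overlap (log2 fold change 0.93, SE 0.25, adjusted p = 0.0473, edgeR). Over 15 alternatives this call was lost in 12, the adjusted p running from 0.00699 to 0.64. The background was 2.53% of all genes called higher and 1.88% lower. DESeq2 called 1 gene.

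The genes as a list were placed a little above AP in CD29, with 40 of 44 log2 differences above 0 and a median of 0.43, against 0.10 over all genes. In 16 of 44 both CD29 libraries lay above all AP libraries, where 14.6% of all genes did so, and 0 lay below, where 9.31% did. An unadjusted p under 0.05 was found for 7, all higher, where 8.64% of all genes passed that threshold higher: Mki67, Ccnb2, Bub1b, Aurka, Birc5, Cdc20 and Ccne1. The last 6 are named after their values were seen. Ccnb2 stood at 47.2 and 70.9 CPM in CD29 and between 23.9 and 33.4 CPM in AP, and had an adjusted p of 0.0663 (edgeR). In CD29, 8 of 10 macrophage, 5 of 7 pericyte and 4 of 5 erythroid markers were called higher and 5 of 8 fibroblast markers lower than in AP; their part was not tested.

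DN against AP, and CD29 against DN. In DN, 0 of 44 genes were called against AP (edgeR), where 4.56% of all genes were called higher and 2.18% lower; DESeq2 called 0. An unadjusted p under 0.05 was found for 1 gene, lower, where 6.77% of all genes were lower at that threshold. It was Cenpe, at 13.7 and 7.95 CPM in DN and between 15.8 and 23.2 CPM in AP (log2 difference -0.77, SE 0.33). The gene was chosen after its value was seen. Both DN libraries lay above all AP libraries in 1 gene, where 14.2% of all genes did so, and below in 7, where 12.4% did. All 8 genes of G1 had a log2 difference below 0, with a median of -0.44. Cyclin D2 stood at 90.5 and 96.2 CPM in DN and between 136 and 153 CPM in AP without overlap (-0.60, SE 0.31, adjusted p = 0.332, edgeR). With DN, 9 of 10 macrophage, 8 of 10 keratinocyte and all 5 erythroid markers were called higher than in AP. So were all 6 mast cell, 5 of 6 neutrophil, 5 of 8 endothelial, 4 of 6 skeletal muscle and 3 of 9 adipocyte markers. Of 7 pericyte markers 3 were called higher and 2 lower, and 5 of 8 fibroblast markers were called lower. The erythroid markers summed to 5640 and 6994 CPM in DN. The part of all these markers was not tested.

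Between CD29 and DN, 0 of 44 were called (edgeR, and 0 by DESeq2), and 0.0109% and 0.0489% of all genes were called higher and lower. The direction was shared by nearly all: 43 of 44 log2 differences were above 0, with a median of 0.54 against 0 over all genes. Both CD29 libraries lay above both DN libraries in 29 of 44 genes, where 20.9% of all genes did so, and below in 1, where 15.7% did. In the same libraries all 5 erythroid markers (170 to 266 CPM summed in CD29) and 2 of 6 mast cell markers (37.3 to 61.2 CPM against 291 to 378 CPM) were called lower in CD29. None of the 10 macrophage markers was called (edgeR), 9 were lower at an unadjusted p under 0.05, and they summed to 3527 to 3953 CPM against 8388 to 9486 CPM. The part of these markers was not tested. The 6 genes with an unadjusted p under 0.05, all higher in CD29 and named after their values were seen (3.59% of all genes passed that threshold higher), were Ccne1, Cenpe, Ccnb2, Cdc6, Ccnd2 and Rrm2. Ccne1 stood at 43.4 and 27.9 CPM in CD29 and at 3.28 and 13.8 CPM in DN (2.13, SE 0.58, adjusted p = 0.255, edgeR). The 3 comparisons of this set that use CD29, DN or AP share libraries with each other.

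**Figure D4:**
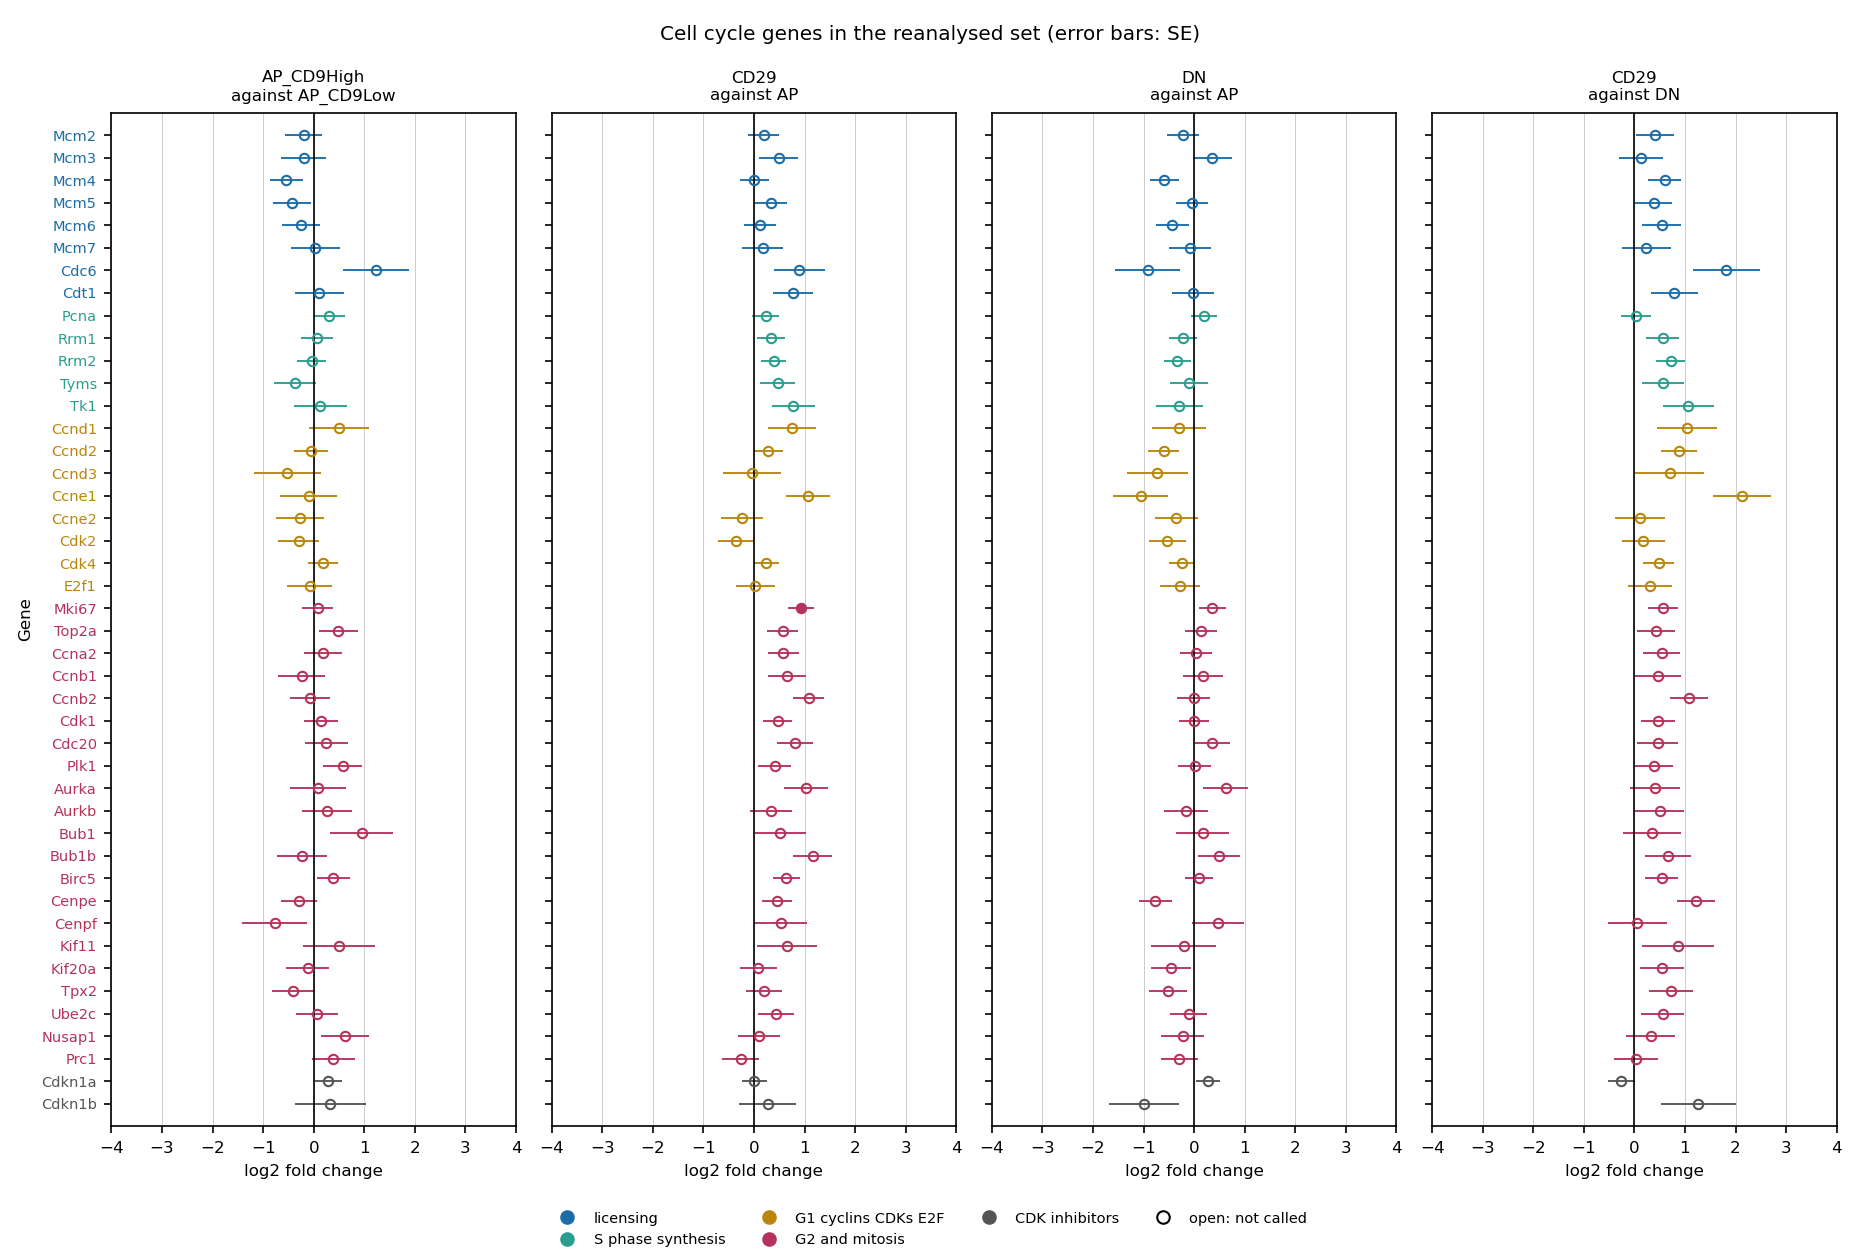
Log2 difference with its SE of each tested gene in the 4 comparisons of the reanalysed set, coloured by role; open symbols were not called. In CD29 against DN nearly all values lie above 0, and none was called.

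Over the new set, 34 of the 44 genes had their highest group mean in AdipoqTraced, 8 in CD26 and 2 in Adipocyte, and 36 had their lowest in Adipocyte. Over the reanalysed set, 35 were highest in CD29, and 23 were lowest in DN, 14 in AP CD9Low and 7 in AP CD9High. How often each group is highest or lowest over all genes was not computed, so these counts have no background. Over all 7 group means, and leaving out genes at 0 in a group, Cdk1, Mcm5 and Ccnb2 had the widest ranges, each from Adipocyte to CD29. They rest on 3, 4 and 5 Adipocyte counts, all in Adipocyte replicate 2. The ratios of pooled counts were 212.0 for Cdk1 (95% exact counting interval 72.6 to 1030.0), 130.0 for Mcm5 (50.9 to 479.0) and 107.0 for Ccnb2 (45.9 to 330.0), so their order cannot be read. Without Adipocyte replicate 1 the ratios of means were 116.0, 70.8 and 60.4, and without Adipocyte replicate 2 no count was left to divide by. Pcna ranged least, 3.46-fold, and then Cdk2, 3.64-fold. These ranges span both sets, and set and group cannot be told apart in them.

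**Figure D5:**
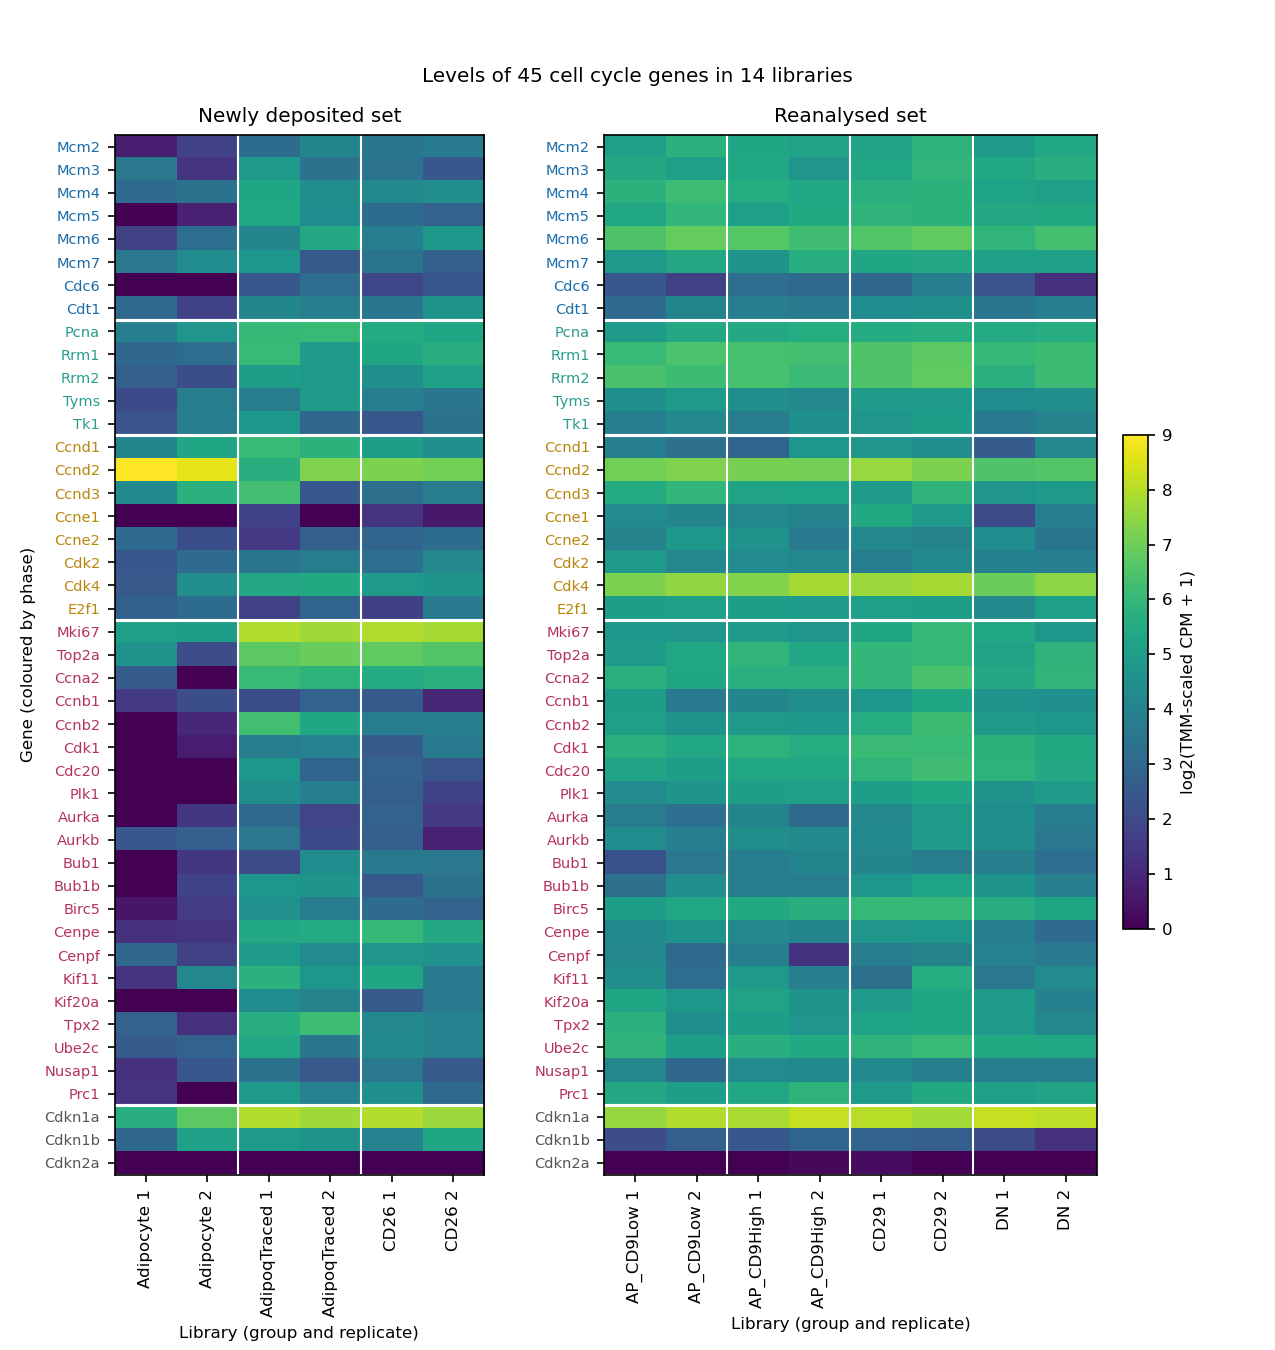
Level of each gene in each library as log2 of CPM + 1, genes in rows by role and libraries in columns by group. The Adipocyte columns are low for most genes of G2 and mitosis.

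Levels per kilobase of exon set the genes side by side. The length is that of all annotated exons of a gene, not of the transcript expressed, so the order is approximate. In Adipocyte, Ccnd2 was highest of the 45, at a mean of 48.3 CPM per kb, and Cdkn1a followed at 21.6 CPM per kb. In AdipoqTraced and CD26, Cdkn1a was highest, at 64.3 and 62.9 CPM per kb, and Ccnd2 stood at 10.7 and 14.9 CPM per kb. In the 4 reanalysed groups Cdkn1a had the highest mean, 60.3 to 80.5 CPM per kb, with Cdk4 next at 46.1 to 64.4 CPM per kb; their libraries overlapped in AP CD9Low, AP CD9High and CD29 but not in DN. Cdk2, which shares exon bases with Pmel, was at 1.62 and 2.83 CPM per kb in the 2 sets. In all, 17 of the 45 genes share exon bases with another annotated gene.

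Set side by side, the AdipoqTraced and CD26 libraries and the 8 reanalysed libraries overlapped for 25 of 44 genes. For 5 the new libraries were all higher (Mki67, Top2a, Cenpe, Cenpf and Cdkn1b), and for 14 the reanalysed libraries were all higher. Mki67 ran from 208 to 244 CPM against 24.6 to 62.4 CPM. Cdk1, in the opposite direction, ran from 4.96 to 14.9 CPM against 41.2 to 68.8 CPM, and Cdk4 from 24.1 to 42.8 CPM against 126 to 222 CPM. Both Mki67 and Cdk1 belong to G2 and mitosis. No test was made, since set and group cannot be told apart. The share of all genes that lie apart in the same way was not computed, so these counts cannot be read as particular to the cell cycle genes.

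Of 105 further cell cycle genes in 5 wider lists, 104 were found. Against Adipocyte, AdipoqTraced had 15 of 104 called higher and 2 lower, beside 5.61% and 4.88% of all genes; the 2 lower are a smaller share than over all genes. Those higher included Smc2 of condensin (46.1 and 78.8 CPM against 6.34 to 13.9, log2 fold change 2.59), Racgap1 of the central spindle (5.47), DNA ligase Lig1 (3.50) and Uhrf1, which keeps DNA methylation at forks (4.94). The genes called lower were Cdkn2c, the p18 inhibitor of Cdk4 and Cdk6, at 1.29 and 6.82 CPM against 66.8 and 94.9 CPM (log2 fold change -4.31, SE 0.58, adjusted p = 6.84e-05, edgeR), and Ccng1, cyclin G1 (-1.41, SE 0.27).

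In CD26 against Adipocyte 11 of the 104 were called higher and 2 lower, beside 5.45% and 5.21% of all genes, so the share lower was again under that over all genes. Cdkn2c was again low, at 1.44 and 4.36 CPM (log2 fold change -4.84, SE 0.61). Mdm2, the ubiquitin ligase for p53, stood at 221 and 252 CPM against 20.3 and 61.8 CPM (2.56, SE 0.47), Myc rose by 0.93 (SE 0.27), Anln (anillin) by 3.03 (SE 0.76) and Uhrf1 by 4.40 (SE 1.34). Hmmr, a spindle protein and hyaluronan receptor, had no Adipocyte count and stood at 13.2 and 33.5 CPM in CD26. Between AdipoqTraced and CD26, Ccng1 was the 1 gene of 104 called, beside 1.48% of all genes called lower, and differed in AdipoqTraced by -1.02 (SE 0.26, adjusted p = 0.0359, edgeR).

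In the reanalysed set Myc, a transcription factor of growth and cell cycle entry, was lower in both CD29 and DN than in AP. It stood between 334 and 437 CPM in the 4 AP libraries, between 97.2 and 140 CPM in CD29 (log2 fold change -1.70, SE 0.24, adjusted p = 0.000339, edgeR) and between 106 and 134 CPM in DN (-1.68, SE 0.24, adjusted p = 0.000231, edgeR). Neither range overlapped that of AP; the 2 comparisons share the AP libraries. Tipin, a fork protection factor, was lower in DN by -1.17 (SE 0.33, adjusted p = 0.0388, edgeR). These are 1 of 104 genes lower in CD29 and 2 in DN, beside 1.88% and 2.18% of all genes. No further gene of the 104 was called in these 2 comparisons, and none in the other two of the set.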

How the data were processed

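Dermal RNA-seq libraries (14, in 7 groups of 2) came as 1 table of raw counts per gene, which the authors deposited without normalization. The submitters' processing notes name HISAT2 2.1, StringTie 1.3.3b, CASAVA 1.8.2, DESeq2 and build mm10; no source used here gives their roles, the annotation or the strand setting. Libraries were made with an ultra-low input kit, per the labels' protocols. Gene symbols, exon lengths and overlaps came from GENCODE M21 on the same build, and 147 of 52636 identifiers had no symbol. All 14 libraries were fitted with edgeR 4.0.16 (R 4.3.3): TMM scaling, filterByExpr by group (18394 genes), 1 coefficient per group, the robust quasi-likelihood F test, and Benjamini-Hochberg adjustment over all genes, with calls at an adjusted p under 0.05. The fit had 7 residual degrees of freedom. SE is the log2 fold change divided by the root of F. DESeq2 1.42.0 and other settings were alternatives. The script was tested on simulated data. Totals of 13760557 to 22218364 counts set the precision, and intervals cover counting error only.

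All 45 members are accounted for by role. The plan was to name up to 4 called genes per role with the smallest p and a set of standard genes. It added the members of widest and narrowest range and up to 2 called genes per wider list. Beyond this plan, the text also names further called genes, genes that did not pass and, where said, genes picked after their values were seen. The members and lists were chosen with earlier results of these data known.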

Additional observations from a re-analysis of the deposited data

How the results depend on the processing

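Counts of members called moved by over 1.5 times in some settings, and the cause was not tested. Library size alone gave 40 in AdipoqTraced against Adipocyte (all higher), 32 in CD26 against Adipocyte (all higher) and 4 in CD29 against AP; it moved the median of all genes from 0.19 to 2.25 and from 0.24 to 1.95 in the first 2, and those of the members to 4.44 and 3.68. Over all genes, library size alone called 7958, 6204 and 864 of 18394 higher in these comparisons, in that order. Libraries of the same set only gave 13 in AdipoqTraced against Adipocyte and 0 in AdipoqTraced against CD26. DESeq2 gave 24 and the legacy method 20 in CD26 against Adipocyte. The legacy method gave 0 in AdipoqTraced against CD26, and no filter on low counts gave 2. For CD29 against AP, DESeq2 size factors, no filter, the legacy method, and the fit without both Adipocyte libraries (chosen after seeing the data) each gave 0. Over all genes these called 431 of 18394, 386 of 28759, 197 of 18394 and 399 of 18122 higher, against 466 in the main fit.

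Leaving out 1 replicate gave 9 to 21 calls in AdipoqTraced against Adipocyte, 5 to 9 in CD26 against Adipocyte, 0 to 7 in AdipoqTraced against CD26 and 0 to 0 in CD29 against AP; where a group kept 1 library, it was assumed to vary like the others. Deviations of same-numbered libraries correlated between -0.028 and 0.049, so no pairing by label number was seen. With 2 libraries a group, this cannot show that there is none. The fit with the label numbers as a replicate block gave 21, 9, 0 and 0 calls in those 4 comparisons. Over all genes it called 881, 911, 177 and 312 of 18394 higher. In every setting run, AP CD9High against AP CD9Low, DN against AP and CD29 against DN had 0.

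A tally covered the called members of each comparison, and Mki67 and Top2a in every comparison. In it 459 alternative values kept direction and call, 105 lost the call and 10 changed sign, and none of those 10 was called. Other members not called were left out of it, so calls they gained are not counted. Pcna in CD26 against Adipocyte, for example, was called with library size alone and with DESeq2. In AdipoqTraced against CD26, Mki67 was 0.29 with library size alone, 0.05 without AdipoqTraced replicate 2 and 0.01 without CD26 replicate 1, ranging from -0.19 to 0.05 over the replicates left out, and Top2a was -0.0007 and -0.02 without AdipoqTraced replicate 2 or CD26 replicate 2 (up to 0.23). Mki67 was -0.07 in AP CD9High against AP CD9Low without AP CD9High replicate 1 (up to 0.21), and -0.01 in DN against AP without DN replicate 1 (up to 0.63). Top2a in DN against AP was -0.27 with the replicate block, -0.01 without AP CD9High replicate 2 and -0.25 without DN replicate 2, with 0.45 as the highest without a replicate. The Adipocyte libraries, with the fewest counts outside the mitochondrial genome, limit what could be called for low genes.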

Other observations

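The 5 genes for which AdipoqTraced and CD26 libraries all lay above the 8 reanalysed libraries had a median exon length of 9013 bases (4552 to 15433). The 14 for which the reanalysed libraries all lay higher had a median of 3325 bases (1868 to 8225), and the 25 that overlapped a median of 4338 bases (1531 to 11012). This was noticed after the values were seen, and the part of length in the difference between the sets was not tested. No share over all genes stands beside these counts.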
